A study of Homo sapiens with 4 samples.

Results

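Genes of iron uptake, storage and sensing were followed in libraries from wild-type and TXNDC9 knockout cells labelled as HepG2, an established human liver cancer line. The 10 members were taken by symbol from the 57979 genes of the deposited table: TFRC, TFR2, FTH1, FTL, SLC40A1, SLC11A2, IREB2, ACO1, HFE and NCOA4. Each condition had 2 libraries of polyadenylated RNA, numbered 1 and 2 in the labels. The wild-type group carries no edit in the labels, and the knockout group carries CRISPR-Cas9 targeting of TXNDC9, a thioredoxin domain protein, through its first exon, with the guide in a lentiviral plasmid. No other treatment is labelled, and all cells grew in DMEM with fetal bovine serum. For a protein blot the study sorted infected knockout cells by flow cytometry, beside cells with the empty vector. Whether the libraries came from those cells, from 1 clone or a mixed population, and with which guide, is not given in the sources used here. The labels do not say that libraries of 1 condition came from separate cultures. Legends of the study speak of independent experiments for RNA-seq values, but with a number that does not match the libraries here. The p-values below measure the spread between these libraries, which may be technical.

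Iron enters most cells when transferrin bound to its receptor is taken up, and it is freed from the endosome through a divalent metal transporter. Inside the cell it is stored in ferritin, a shell of heavy and light chains, and it leaves through ferroportin. Iron regulatory proteins sense the cytosolic iron level. When iron is scarce they bind a hairpin in messenger RNAs, the iron-responsive element, which blocks translation when it lies in the 5′ UTR, as in ferritin, and protects the transcript when it lies in the 3′ UTR, as in the transferrin receptor.

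Levels were given in FPKM, which by its name divides the fragments of a gene by the length of its transcript and by the total of mapped fragments. How that total was scaled between libraries is not given in the sources used here. Because the table holds no counts, the depth of each library is unknown. Over all genes, FPKM added up to 805816 and 971102 (wild type), against 535973 and 568279 (knockout). Log2 values of the tested genes correlated at 0.976 between the wild-type libraries, at 0.980 between the knockout libraries, and from 0.859 to 0.897 across conditions. TXNDC9 mRNA was 35.1 and 37.3 FPKM in wild type, against 21.9 and 27.6 FPKM in the knockout, with a log2 fold change of −0.55 (adjusted p = 0.0145 from limma). Gene-level FPKM does not show whether the coding sequence is intact. TXNDC9 overlaps EIF5B on the other strand, with means of 70.1 FPKM in wild-type and 34.1 FPKM in knockout libraries, and reads of the overlap cannot be told apart. The defining hepatoma markers were all but absent from the 4 libraries: ALB, AFP, APOA1, APOB, TTR, SERPINA1, FGB and HNF4A reached at most 0.449 FPKM in any of them, and APOA1 was listed at 0 in all. The 8 markers together summed to between 0.351 and 0.716 FPKM in wild-type and between 0.0479 and 0.121 FPKM in knockout libraries. Of 4 fibroblast markers, COL1A1 (17.5 to 31.5 FPKM) and COL3A1 (13.1 to 24.0 FPKM) were above 1 FPKM in all 4 libraries. DCN was above 1 FPKM in the wild-type libraries only, and LUM in none. The 4 markers together summed to 48.8 to 53.0 FPKM in wild-type and 31.8 to 35.4 FPKM in knockout libraries. The 5 blood cell markers stayed at or below 0.638 FPKM. The 3 endothelial markers summed to between 0.803 and 1.22 FPKM in wild-type and between 3.42 and 4.41 FPKM in knockout libraries. Of these CDH5 rose from 0.751 and 1.07 to 4.26 and 3.14 FPKM, with a log2 fold change of 1.92 (adjusted p = 0.00195 from limma). Its wild-type mean was 0.909 FPKM, and it was tested only because the knockout values raised its average above 1 FPKM. With the correction for length and GC content described below CDH5 was at 1.93. PECAM1 and VWF stayed at or under 0.261 FPKM. The part of this in the results below was not tested, and the name HepG2 is used here only as the label gives it.

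To show which members carry the iron-responsive element, the annotated transcripts were searched for an unpaired C, 5 paired bases, the loop CAGTGN, and the matching bases of the stem, with at least 3 of the 4 pairs below the C formed (G with T allowed). On the sense strand, 0.233% of 19749 canonical protein-coding transcripts held such a hairpin, and 4 of the 10 members did. TFRC had 4 of them in its 3′ UTR in exon 19 of 19, while FTH1, FTL and SLC40A1 each had 1 in the 5′ UTR in exon 1. The 25 bases of each are given 5′ to 3′ from GENCODE transcripts on hg38, with the unpaired C and the loop in capitals.
TFRC, chr3:196050981-196051005, minus strand: ttatCggaagCAGTGCcttccataa
TFRC, chr3:196050577-196050601, minus strand: ttatCgggagCAGTGTcttccataa
TFRC, chr3:196050512-196050536, minus strand: gtatCggagaCAGTGAtctccatat
TFRC, chr3:196050465-196050489, minus strand: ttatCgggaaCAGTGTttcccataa
FTH1, chr11:61967576-61967600, minus strand: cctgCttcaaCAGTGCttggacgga
FTL, chr19:48965337-48965361, plus strand: cttgCttcaaCAGTGTttggacgga
SLC40A1, chr2:189580663-189580687, minus strand: acttCagctaCAGTGTtagctaagt

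A match describes the letters only. The search as written found none in the other 6 members, from which nothing follows about their regulation.

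The knockout libraries had more mRNA of the transferrin receptor TFRC, the iron regulatory protein gene IREB2 and the hemochromatosis gene HFE, by 4.60-, 3.84- and 3.02-fold. The ferritin heavy chain gene FTH1 had overlapping values between the conditions, and the light chain gene FTL was 1.90-fold lower without passing the threshold. A gene was called when limma with Benjamini-Hochberg adjustment over the 13246 genes with an average above 1 FPKM gave an adjusted p under 0.01 and the fold change was at least 2. By this rule 3 of the 9 tested members rose and 0 fell, while 14.2% of all tested genes were called higher and 15.3% lower. No test other than limma was used for these calls. FTL and TFR2 had both knockout values under both wild-type values, as 45.9% of all tested genes did. Neither met either part of the rule. FTL was 1.90-fold lower (adjusted p = 0.0186 from limma) and TFR2 1.29-fold lower (adjusted p = 0.0619 from limma). A further 3 members, SLC11A2, ACO1 and NCOA4, were higher at an adjusted p under 0.01 but by less than 2-fold. At that adjusted p with any fold, 23.7% of all tested genes were higher and 27.1% lower. The median log2 fold change of the tested members was 0.79, against −0.09 for all tested genes.

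**Figure D1:**
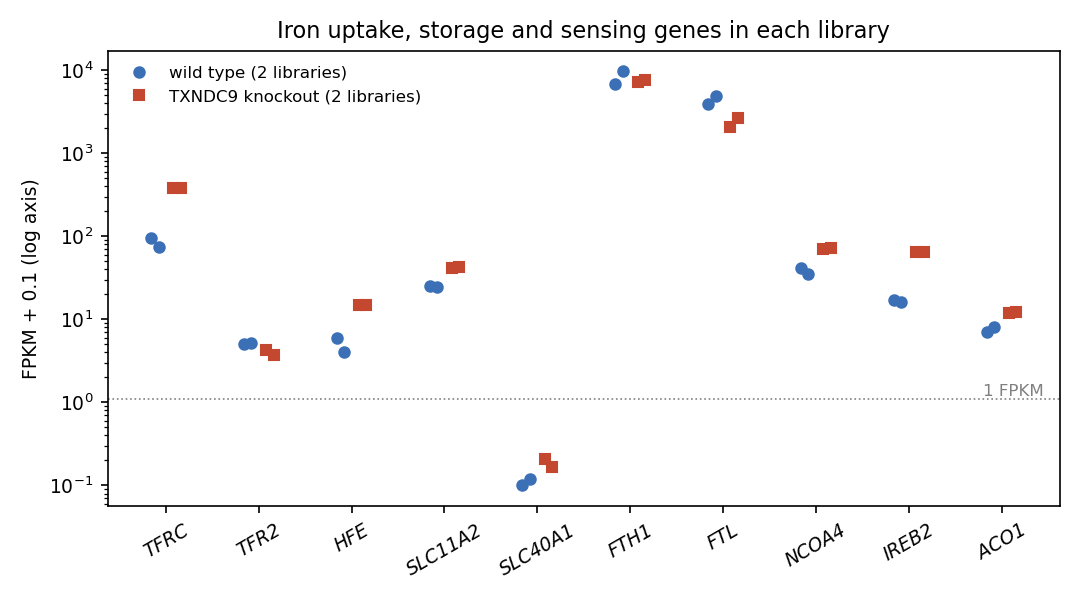
FPKM of the 10 members in each of the 4 libraries, plotted as FPKM + 0.1 on a log axis, with wild-type libraries as circles and knockout libraries as squares. TFRC rises from 94.3 and 73.9 to 386 and 387 FPKM, FTH1 overlaps between the conditions, and SLC40A1 lies far under the dotted line at 1 FPKM.

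TFRC (ENSG00000072274, hg38 chromosome 3 from 196012511 to 196082153, minus strand) encodes the main receptor for iron-loaded transferrin. It was 94.3 and 73.9 FPKM in wild type, against 386 and 387 FPKM in the knockout. The knockout values nearly coincided and lay far above both wild-type values. The means were 84.1 ± 14.4 and 386 ± 0.936 FPKM (SD, n = 2). On the log2 scale it rose by 2.21, with a 95% interval from 1.84 to 2.58 (adjusted p = 0.000512 from limma). This was place 310 among the 13246 tested genes counted from the largest rise. TFR2 (ENSG00000106327, chromosome 7 from 100620416 to 100642779), a second transferrin receptor that acts mostly in sensing circulating iron, was 4.96 and 5.08 FPKM in wild type, against 4.17 and 3.59 FPKM in the knockout. Its log2 fold change was −0.37 (95% interval −0.72 to −0.02, adjusted p = 0.0619 from limma), which did not pass. In every library the transcript of TFRC, per length, exceeded that of TFR2, by 19.0 and 14.6 times in wild-type and by 92.5 and 108 times in knockout libraries.

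HFE (ENSG00000010704, chromosome 6 from 26087281 to 26098343), whose protein binds the transferrin receptor and helps set hepcidin, was 5.87 and 3.98 FPKM in wild type, against 14.7 and 15.0 FPKM in the knockout. It rose by 1.60 on the log2 scale (95% interval 1.12 to 2.08, adjusted p = 0.00116 from limma). The histone gene H2BC4 is annotated across 11063 bases of the same locus on the other strand, with means of 9.32 FPKM in wild-type and 6.97 FPKM in knockout libraries. Because the use of strand in the mapping is not given in the sources used here, reads of HFE and H2BC4 cannot be told apart where they overlap.

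SLC11A2 (ENSG00000110911, chromosome 12 from 50979401 to 51028566) encodes the divalent metal transporter that moves iron out of endosomes. It was 24.97 and 24.2 FPKM in wild type, against 42.1 and 43.2 FPKM in the knockout. The groups stood clearly apart, and the 1.74-fold difference (log2 0.79, 95% interval 0.56 to 1.03, adjusted p = 0.00115 from limma) was short of 2-fold. SLC40A1 (ENSG00000138449), which encodes ferroportin, the exporter of cellular iron, was listed at 0 and 0.0201 FPKM in wild-type and at 0.106 and 0.0689 FPKM in knockout libraries. All 4 values were under the filter of 1 FPKM, so it was not tested and no fold is given.

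FTH1 (ENSG00000167996, chromosome 11 from 61959718 to 61967634) encodes the ferritin heavy chain, which oxidizes iron for storage, and had rank 2 by mean FPKM among all tested genes. It was 6876 and 9678 FPKM in wild type, against 7148 and 7729.6 FPKM in the knockout. Both knockout values fell between the wild-type values. The log2 fold change was −0.13 with a 95% interval from −0.88 to 0.61 (adjusted p = 0.709 from limma). FTL (ENSG00000087086, chromosome 19 from 48965309 to 48966879), the light chain, which aids mineral formation in the core, was 3960.0 and 4959 FPKM in wild type, against 2063 and 2632 FPKM in the knockout. Both knockout values lay under both wild-type values. The log2 fold change was −0.93 (95% interval −1.54 to −0.31), with an adjusted p of 0.0186 from limma that missed 0.01. Where each library was centred on the median of its tested genes, FTL was called lower, with a log2 fold change of −1.07 (adjusted p = 0.00476 from limma). FTL also passed 0.01, still under 2-fold, with the replicate number as a block (adjusted p = 0.00249 from limma). The same held for genes averaging above 5 FPKM (adjusted p = 0.00878 from limma). Ferritin has many processed copies in the genome that can share its reads, so both ferritin values are uncertain. The table listed 25 copies of FTH1 and 16 of FTL, and the summed FPKM of the copies was at most 0.119% of the parent gene for FTH1 and 0.0338% for FTL.

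NCOA4 (ENSG00000266412, chromosome 10 from 46005088 to 46030623) encodes the receptor that delivers ferritin to autophagosomes, from which the iron is recovered. It was 41.3 and 35.1 FPKM in wild type, against 70.1 and 72.3 FPKM in the knockout. The conditions did not overlap, nor did they for 40.1% of all tested genes in this direction and 45.9% in the other. The difference was 1.86-fold (log2 0.90, 95% interval 0.61 to 1.198, adjusted p = 0.00151 from limma). Without wild-type replicate 1, NCOA4 passed 2-fold as well, with a log2 fold change of 1.02.

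The sensors IREB2 and ACO1 encode iron regulatory proteins, of which the ACO1 product also works as a cytosolic aconitase when it holds an iron-sulfur cluster, whereas the IREB2 product is controlled by its degradation when iron is plentiful. IREB2 (ENSG00000136381, chromosome 15 from 78437431 to 78501453) was 17.1 and 16.3 FPKM in wild type, against 64.0 and 64.4 FPKM in the knockout. Both conditions had tight replicates, and the gap between them was wide. It rose by 1.93 on the log2 scale (95% interval 1.70 to 2.17, adjusted p = 0.000486 from limma), place 476 from the largest rise. ACO1 (ENSG00000122729, chromosome 9 from 32384603 to 32454769) was 6.998 and 7.91 FPKM in wild type, against 11.9 and 12.3 FPKM in the knockout. Its 1.63-fold difference (log2 0.70, 95% interval 0.41 to 0.98, adjusted p = 0.00314 from limma) was under 2-fold. In wild-type libraries IREB2 was lower than SLC11A2, and in knockout libraries it was above it and still below NCOA4.

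Ratios of 2 members within a library do not depend on how the library was scaled. TFRC was 1.37% and 0.764% of FTH1 in wild-type libraries and 5.40% and 5.01% in knockout libraries, a 5.08-fold shift. The ratio of IREB2 to ACO1 went from 2.45 and 2.06 to 5.39 and 5.21, by 2.36-fold. The ratio of FTH1 to FTL went from 1.74 and 1.95 to 3.46 and 2.94, by 1.73-fold. The ratio of TFRC to TFR2, whose values are given above, shifted by 6.004-fold. In all 4 pairs the knockout ratios lay above both wild-type ratios. The exact two-sided permutation test over libraries gave p = 0.333 for each, the smallest it can give with 2 libraries against 2, and so 0.333 also after Benjamini-Hochberg adjustment over the 4 pairs.

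The size of each change moved with the length and base composition of the transcript. Spearman correlations with the log2 fold change were 0.495 for canonical transcript length and −0.462 for GC content, taken across 13112 tested genes, which share the same 4 libraries and are no replicates. Length also went with differences within a condition. Its correlation was −0.325 with the log2 ratio of wild-type library 2 to 1, and −0.0625 with that of knockout library 2 to 1. The called members were long and AT-rich: TFRC has 5012 nt and 40.9% GC, IREB2 6324 nt and 38.2% GC, and HFE 5176 nt and 42.6% GC, against medians of 2866.5 nt and 48.5% over the tested genes. The ferritin transcripts are short, with 1203 nt for FTH1 and 871 nt for FTL. Among tested genes with transcripts of at least 4760.25 nt, 34.7% were called higher and 4.15% lower, and of the 4 members of that length 3 were called higher and ACO1 was not. This comparison was added after the values had been seen. When each library was corrected for length and GC content, 2 members stayed called, TFRC with a log2 fold change of 1.52 (adjusted p = 0.00137 from limma) and IREB2 with 1.01 (adjusted p = 0.00126 from limma), where 6.36% of genes were called higher and 7.24% lower. HFE was then at 0.94 (adjusted p = 0.0123 from limma). FTL moved from −0.93 to −0.07, ACO1 from 0.70 to −0.10, FTH1 from −0.13 to 0.40 and TFR2 from −0.37 to 0.19, so the last 3 changed sign. NCOA4 was at 0.58 (adjusted p = 0.00826 from limma) and SLC11A2 at 0.33 (adjusted p = 0.0143 from limma). After this correction the shift of the ratio of TFRC to FTH1 was 2.18-fold, that of IREB2 to ACO1 2.16-fold, that of TFRC to TFR2 2.51-fold and that of FTH1 to FTL 1.38-fold.

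**Figure D2:**
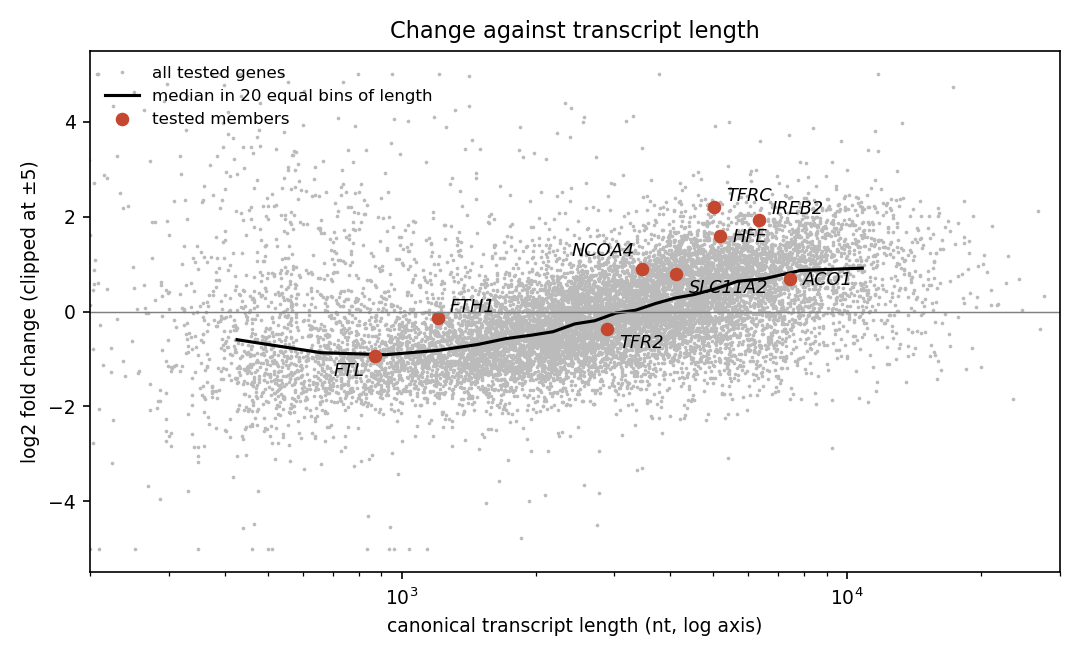
Log2 fold change of each tested gene (grey points, values beyond 5 drawn at 5, the longest and shortest transcripts not shown) against canonical transcript length on a log axis, with the median of 20 equal bins as a line and the 9 tested members in red. TFRC, IREB2, HFE and NCOA4 lie above the line, FTH1 also does, and FTL and ACO1 lie close to it.

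Scaling mattered for the smaller differences. With every library brought to an equal total (TPM), the median over all tested genes went from −0.09 to 0.59 on the log2 scale. TFRC was then at 2.89, IREB2 at 2.62 and HFE at 2.28, and SLC11A2, ACO1 and NCOA4 also passed 2-fold, so that 6 members were called higher, where 33.1% of all tested genes were called higher and 3.37% lower on this scale. FTH1 and TFR2 turned to 0.55 and 0.30. Relative to the median of the tested genes, the rise of TFRC was 2.30 both as deposited and in TPM, that of IREB2 was 2.02 and 2.03, and FTL was at −0.84 and −0.83. These values must nearly coincide, because TPM divides all genes of a library by the same total. Their closeness is therefore no test of the scaling.

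**Figure D3:**
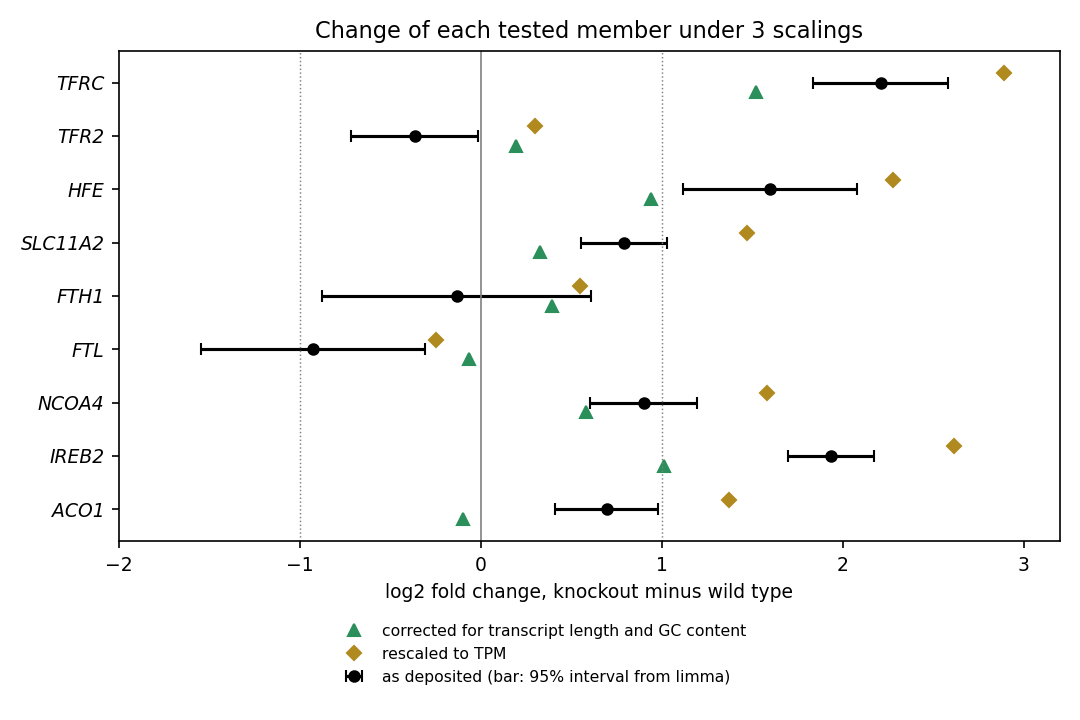
Log2 fold change of the 9 tested members, as deposited (black, bars are 95% intervals from limma), after correction for transcript length and GC content (green triangles) and after rescaling to TPM (yellow diamonds), with dotted lines at 2-fold. TFRC and IREB2 stay beyond 2-fold under all 3, while FTH1, TFR2 and ACO1 change sign under at least 1 of them.

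Beyond the members, 88 further genes of iron handling were listed by role, of which 76 passed the filter. Of these, 10 rose and 13 fell (13.2% and 17.1%, against 14.2% and 15.3% of all tested genes). The median log2 fold change was −0.30.

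In the hepcidin pathway the hormone gene itself was all but missing. HAMP, which encodes hepcidin, was listed at 0.0259 FPKM in 1 wild-type library and at 0 in the other 3. HJV, a coreceptor in the control of hepcidin, was at 0.0696 FPKM in 1 and at 0 in the other 3. Of the 11 tested genes of this role 5 rose and 1 fell (45.5% and 9.09%, against 14.2% and 15.3% of all tested genes). With the correction for length and GC content 3 were called higher and 1 lower, where 6.36% and 7.24% of genes were. The median log2 fold change of this role was 0.18 as deposited and 0.11 with the correction. After rescaling to TPM 5 were called higher and 0 lower, where 33.1% and 3.37% of all tested genes were. SMAD4, the shared signal transducer, rose from 8.57 and 7.59 to 34.6 and 37.1 FPKM, by 2.14 on the log2 scale (adjusted p = 0.000486 from limma). The receptor gene BMPR1A rose from 4.36 and 3.59 to 15.0 and 15.9 FPKM, and the transducer SMAD5 from 5.10 and 5.67 to 17.7 and 18.7 FPKM. With the correction for length and GC content SMAD4 was at 1.12, BMPR1A at 1.05 and SMAD5 at 0.71. The other two genes that rose, SMAD1 and BMPR2, were chosen for naming after their values were seen and were at 1.55 and 0.11. The gene that fell was BMP6, the ligand best known for inducing hepcidin, which was chosen for naming after its values were seen. It went from 17.2 and 18.6 to 6.23 and 5.98 FPKM, a log2 fold change of −1.54, and −1.44 with the correction.

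Among genes of uptake and handling, 2 of 12 tested rose and 1 fell (16.7% and 8.33%, against 14.2% and 15.3% of all tested genes). STEAP4, a metalloreductase, rose from 4.48 and 4.92 to 38.9 and 36.7 FPKM, by 2.98 on the log2 scale (adjusted p = 0.000486 from limma), and was at 1.86 with the correction. SLC39A14, which imports iron not bound to transferrin, rose from 24.2 and 21.6 to 58.1 and 61.9 FPKM, and was just under 2-fold with the correction (0.98). SLC25A28, a mitochondrial iron importer, fell from 33.5 and 37.3 to 13.9 and 17.2 FPKM and was at −0.30 with the correction. STEAP3, the reductase of the transferrin cycle, was 11.2 and 11.6 FPKM in wild type, against 8.06 and 7.59 FPKM in the knockout, 1.45-fold lower (adjusted p = 0.00602 from limma). With the correction STEAP3 was at −0.45, and its adjusted p of 0.0139 from limma missed 0.01. The transferrin gene TF stayed at or under 0.0949 FPKM in all 4 libraries.

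Of 7 tested genes for the turnover of iron regulatory proteins and for other messengers with iron-responsive elements, 2 rose (28.6%, against 14.2% of all tested genes). FBXL5, the iron-sensing subunit that marks iron regulatory proteins for degradation, was 44.9 and 47.6 FPKM in wild type, against 66.5 and 67.9 FPKM in the knockout, 1.45-fold higher (adjusted p = 0.00481 from limma), and was at 0.11 on the log2 scale with the correction. CDC42BPA rose from 7.05 and 6.53 to 16.7 and 19.0 FPKM. CDC14A, which passed the filter of 1 FPKM only through its knockout values, rose from 0.526 and 0.448 to 1.54 and 1.58 FPKM. Neither stayed past the threshold with the correction, at 0.40 and 0.95. SKP1, a ubiquitin ligase subunit chosen after its values were seen, was at −0.38 as deposited (adjusted p = 0.0589 from limma) and was then called lower, at −1.42.

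The ACO1 product can hold an iron-sulfur cluster. Listed under iron-sulfur cluster assembly were assembly genes and some proteins that carry a cluster, such as CISD3. Of 28 tested, 10 fell (35.7%, where 15.3% of all tested genes did), and the median log2 fold change was −0.71. CISD3, a mitochondrial iron-sulfur protein, went from 94.6 and 135 to 30.6 and 30.02 FPKM, a log2 fold change of −1.89 (adjusted p = 0.000665 from limma). FDX2, the ferredoxin of the assembly machinery, went from 57.4 and 79.6 to 19.6 and 22.5 FPKM, and the late-acting factor ISCA2 from 22.6 and 28.3 to 8.20 and 9.96 FPKM. With the correction for length and GC content 6 of the 28 were called lower, where 7.24% of all genes were. Among them were CISD3 at −1.49 and ISCA2 at −1.54, while FDX2 was at −0.62. After rescaling to TPM the median of this role was −0.03 and 2 of its genes were called higher and 2 lower, where 33.1% and 3.37% of all tested genes were.

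**Figure D4:**
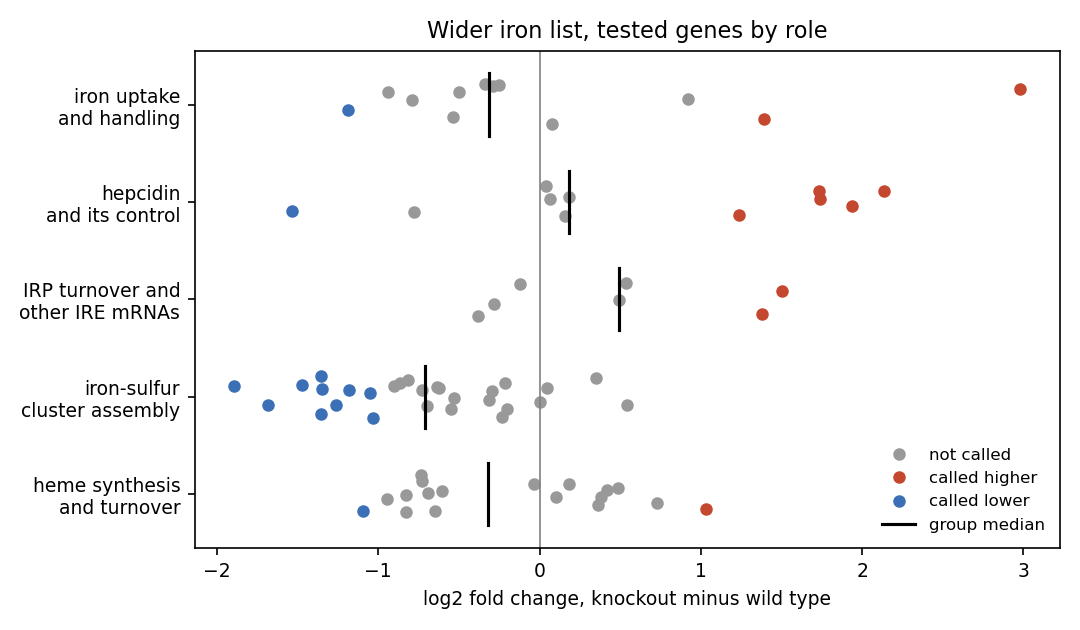
Log2 fold change of the 76 tested genes of the wider iron list by role, 1 point a gene, red where called higher, blue where called lower and grey otherwise, with black bars at the group medians. The 28 genes listed under iron-sulfur cluster assembly centre on −0.71 with 10 called lower, where 15.3% of all tested genes are. Of 11 hepcidin pathway genes 5 are called higher, where 14.2% of all tested genes are. With the correction for length and GC content it is 3 of 11, where 6.36% of all genes are. In TPM it is 5 of 11, where 33.1% of all tested genes are.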

How the data were processed

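Libraries of poly(A) RNA were mapped by the authors to hg38 with TopHat2 on an Ensembl annotation, and the deposited FPKM values per gene and library came from Cuffdiff of the Cufflinks suite (tool names also in the submitters' processing notes). Versions, library normalization and strand are not given in the sources used here. The deposited table also holds condition averages and the authors' own fold changes, p-values and q-values, which were not used.

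Of 231916 lines, 57979 held values. The identifiers stood out of register with the symbols and were put back in their order, and 85.2% of the tested genes found in GENCODE release 44 then had the same symbol. For a repeated symbol the row with the highest mean was used. limma 3.58.1, under R 4.3.3 and with its prior variance following mean expression, was run on log2 of FPKM plus 0.1 for the 13246 genes averaging more than 1 FPKM, with Benjamini-Hochberg adjustment. A low gene's fold change comes out too small on this scale. Cuffdiff was not rerun, since it needs reads. Among genes under 0.03 FPKM no more than 8.52% shared 1 log2 ratio between libraries, so no step worth 1 read was found and the depth stayed unknown.

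The members, gene lists and tests were chosen with earlier results of these data known. Named beyond the members are 7 genes of the wider list always, and per role the 3 called genes with the largest change whose conditions do not overlap. A few others are named after their values were seen, as said beside them. Length and GC content were corrected for with loess curves (span 0.3) through the deviations of each library from the gene means. Alternatives were other pseudocounts, filters, scalings, thresholds, no trend, the replicate block, that correction and each library left out. The fit was tested on simulated data for the comparison of knockout with wild type. Tables and figures were made with pandas 2.3.3, numpy 2.4.6 and matplotlib 3.10.9 in Python 3.11.15, and permutation tests with scipy 1.17.1.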

Additional observations from a re-analysis of the deposited data

How the results depend on the processing

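TFRC and IREB2 were called higher in 12 of 14 alternatives and HFE in 10. Those 3 calls were lost without TXNDC9 knockout replicate 1 or 2, where the lone knockout library is assumed to vary like the wild-type pair. The adjusted p of TFRC was then 0.0237 and 0.0232, and limma called 0 genes in the whole table. With each library left out, members called higher ranged from 0 to 4, wider list genes from 0 to 10 higher and 0 to 19 lower, and all genes from 0 to 2136 higher and 0 to 2633 lower, while the log2 fold change of TFRC stayed between 2.03 and 2.38. FTH1 ranged from −0.38 to 0.11, and turned positive without wild-type replicate 2. TPM gave 6 members higher, 19 and 2 wider list genes higher and lower, and 4380 and 447 of all genes, 90.7% of them higher against 48.3% as deposited. TPM reversed TFR2 (0.30) and FTH1 (0.55). Median centring called 1 member lower, FTL, and 35.8% of its calls were higher. The correction for length and GC content gave 4 wider list genes higher, and 834 higher and 949 lower of all genes. It reversed TFR2 (0.19), FTH1 (0.40) and ACO1 (−0.10). With the replicate block added it gave 4, 857 and 965, with the same 3 reversals. An average above 5 FPKM left 1220 genes higher.

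Deviations from the condition mean correlated at −0.0904 between libraries that share a replicate number, so no pairing by number was seen over the tested genes as a whole. Pairing in a part of the genes was not tested. With the replicate block alone the same 3 members were called, with an adjusted p of 7.83e-06 for TFRC, and 1960 genes were higher and 2146 lower. The ratio of SLC11A2 to SLC40A1 was not run, because SLC40A1 was listed at 0 in 1 library. Pairs of libraries are too few to test whether 1 of them lies apart.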

Other observations

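Heme takes up much of a cell's iron, and its genes were mixed. Of 18 tested genes of heme synthesis and turnover 1 rose and 1 fell (5.56% each, against 14.2% and 15.3% of all tested genes), with a median log2 fold change of −0.32, or 0.18 with the correction for length and GC content. FECH, which inserts iron into the heme ring, rose from 9.41 and 9.54 to 17.99 and 21.1 FPKM (adjusted p = 0.000994 from limma) and was at 0.15 with the correction. HMOX2, the constitutive heme oxygenase, fell from 45.5 and 56.7 to 22.6 and 24.8 FPKM and was at −0.37 with the correction. HMOX1, the inducible heme oxygenase, which releases iron from heme, was 7.66 and 10.2 FPKM in wild type, against 8.16 and 9.07 FPKM in the knockout, with a log2 fold change of −0.04 (adjusted p = 0.856 from limma), and was at 0.76 with the correction (adjusted p = 0.00472 from limma).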
